A study of Mus musculus with 12 samples.

Results

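The genes described here are the ligands, receptors, inhibitors and feedback genes of Wnt signalling, measured by RNA-seq in the visual thalamus of newborn mice. They were found by symbol in the count tables of both mouse lines and make up 51 of the 24480 genes listed: 18 ligands, 12 receptors, 9 secreted inhibitors, 4 secreted agonists and 8 intracellular or feedback genes. The study asked which genes depend on the transcription factors *Sox2* and *Nr2f1* in the dorsal lateral geniculate nucleus (dLGN), the thalamic relay of visual input to the cortex. Its 12 libraries fall into 4 groups of 3, mutants and controls of a *Sox2* and of an *Nr2f1* line. For each library the dLGNs of 3 animals were pooled, at postnatal day 0.

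*Sox2* mutants were Sox2flox/flox;Ror-alphaCre, and their controls were Sox2flox/flox or Sox2flox/+ animals that had no Cre. *Nr2f1* mutants were Nr2f1 flox/flox;Ror-alphaCre. The label of the *Nr2f1* controls gives that same genotype and also says that Cre is missing, and the study's methods describe the controls as littermates without Cre, of either Nr2f1flox/flox or Nr2f1flox/+ genotype, which was followed here. In the Ror-alphaCre allele, Cre is expressed from the *Rora* gene, so that deletion is expected in sensory thalamic cells that no longer divide. Every mutant library of both lines but no control carries this allele. Within a line, effects of the allele itself and of the deletion cannot be told apart. Libraries are named here by the deposited columns, as controls 1, 2 and 3 and mutants 1, 3 and 4 of the *Sox2* line, and controls B, D and E and mutants A, B and C of the *Nr2f1* line, and values are given in that order throughout. Total counts were 45205377, 43129793 and 40306996 in the *Sox2* controls and 40321949, 43335724 and 44749867 in the *Sox2* mutants. They were 42093150, 50095344 and 46844439 in the *Nr2f1* controls and 39293465, 46141304 and 45360140 in the *Nr2f1* mutants.

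Wnt ligands are secreted lipid-modified proteins that bind Frizzled receptors together with the co-receptors *Lrp5* and *Lrp6*. In the canonical branch this stops the Axin complex from destroying beta-catenin, which then acts in the nucleus with TCF/LEF factors, while other branches act on cell polarity and on the guidance of axons. Secreted inhibitors (Dkk and Sfrp proteins, *Notum*) and feedback genes (*Axin2*, *Nkd1*, *Znrf3*) limit the signal, R-spondins strengthen it, and in the embryo Wnt signals help to divide and pattern the developing thalamus.

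Levels are given as CPM, the count of a gene per 1e+06 counts of its library after TMM scaling (trimmed mean of M-values), which makes libraries comparable. Each line's mutants were set against its own controls with edgeR's quasi-likelihood test over all genes. The log2 fold change is that of mutants over controls, so that 1 means a doubling, and a gene is said to have risen, fallen or been called when its FDR, the p-value adjusted over all genes tested by the Benjamini-Hochberg method, was below 0.01. The targeted genes were examined first. In the *Sox2* line, *Sox2* measured 361, 363 and 382 CPM in controls and 116, 150 and 152 CPM in mutants. Every mutant library lay far below every control, and *Sox2* fell by 1.40 ± 0.10 (SE, n = 3) on the log2 scale with an edgeR FDR of 4.83e-05. Here and below, the SE is the size of the log2 fold change divided by the square root of the test's F statistic. It is thus not a spread over replicates, and n is the number of libraries in each group. In the *Nr2f1* line, *Nr2f1* measured 311, 370 and 380 CPM in controls and 105, 151 and 101 CPM in mutants. Here too the groups lay apart, and *Nr2f1* fell by 1.57 ± 0.14 (SE, n = 3) on the log2 scale with an edgeR FDR of 3.48e-04. Some RNA of each targeted gene was thus still counted in its own mutants, and the reads of *Sox2* may include some of *Sox2ot*, a longer gene on the same strand that contains it. *Sox2* in the *Nr2f1* line measured 351, 343 and 374 CPM in controls and 238, 279 and 212 CPM in mutants. All of these mutants lay below the controls, and *Sox2* fell by 0.55 ± 0.09 (SE, n = 3) on the log2 scale with an edgeR FDR of 0.00635. That call was lost without control B, D or E or mutant A or C (edgeR FDR of 0.0285, 0.0219, 0.0275, 0.0409 and 0.0104) and with the mean of Y-linked genes as a covariate (0.0607), with log2 fold changes from -0.58 to -0.47 in these fits and -0.54 with the covariate. *Nr2f1* in the *Sox2* line measured 308, 345 and 344 CPM in controls and 227, 313 and 221 CPM in mutants, where mutant 3 lay among the controls, and its log2 fold change of -0.39 had an edgeR FDR of 0.0559, or -0.57 and 0.00338 without that mutant.

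The tissue label was checked with marker genes. Neuronal markers (6 genes, the most abundant being *Tubb3*) summed to 6280, 6400 and 5460 CPM in the *Sox2* controls and 5809, 5381 and 5525 CPM in the *Sox2* mutants, and 1 of the 6 fell (4.19% of all genes tested). Markers of thalamic glutamatergic neurons (8 genes, the most abundant being *Rora*) summed to 1230, 1096 and 969 CPM in these controls and 892, 816 and 832 CPM in these mutants. Here 2 of the 8 rose and 3 fell, against 3.90% and 4.19% of all genes tested. The lower sum in these mutants comes from *Rora*, the gene that carries Cre in every mutant, at 364, 341 and 298 CPM in controls and 80.9, 100 and 76.2 CPM in mutants. The other 7 genes summed to 866, 755 and 671 CPM in controls and 811, 716 and 756 CPM in mutants, which overlap. Genes called in both directions are among these 7, so the overlap of their sums does not mean that each was unchanged. *Rora* in the *Nr2f1* line, where mutants carry the same allele, measured 382, 344 and 413 CPM in controls and 363, 333 and 261 CPM in mutants (log2 fold change of -0.25, edgeR FDR of 0.204). In the *Nr2f1* line the same thalamic list summed to 1200, 1060 and 1252 CPM in controls and 1133, 1183 and 942 CPM in mutants, and 1 of the 8 rose (1.22% of all genes tested). Both lists were thus present in every library, and none of their genes was at 0 in every library.

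In control tissue the 51 Wnt genes spanned a wide range of levels. For comparisons between genes, CPM was divided by transcript length in kilobases and averaged over the 6 control libraries of both lines. On this scale 30 of the 51 genes reached 1 CPM per kb and 21 did not. Ligands ran from 0.0078 CPM per kb for *Wnt8b* to 25.8 CPM per kb for *Wnt9b*, and 8 of the 18 reached 1. Receptors ran from 0.346 CPM per kb for *Fzd5* to 25.4 CPM per kb for *Fzd10*, and 10 of the 12 reached 1. Among the secreted inhibitors, *Dkk1* was the lowest at 0.0158 CPM per kb and *Sfrp2* the highest at 12.8 CPM per kb, and 5 of the 9 reached 1. All 4 R-spondins were scarce, from 0.0776 CPM per kb for *Rspo4* to 0.650 CPM per kb for *Rspo1*. The intracellular and feedback genes ran from 0.821 CPM per kb for *Dact2* to 37.7 CPM per kb for *Nkd1*, and 7 of the 8 reached 1. The plot of control levels by role shows how few ligands stood near the top of this range.

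**Figure D1:**
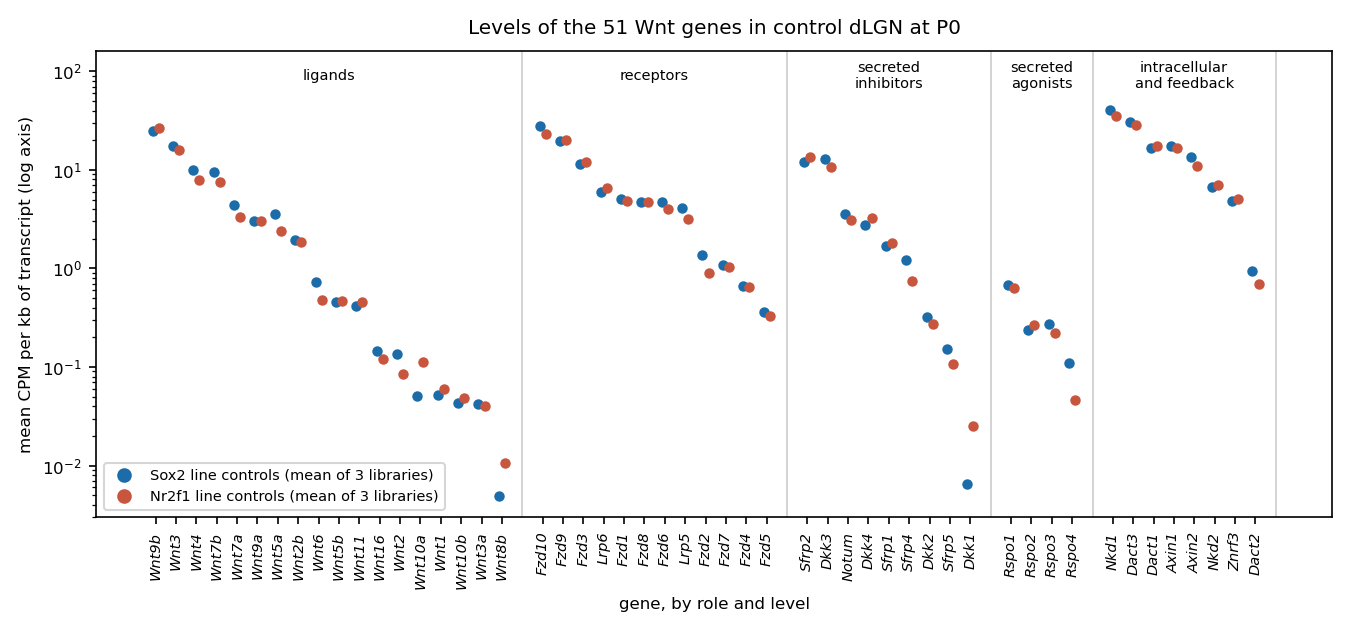
Mean level of each of the 51 Wnt genes in control dLGN, in CPM per kb of transcript on a log axis, with genes grouped by role and ordered by level; blue points are the mean of the 3 *Sox2* line controls and red points the mean of the 3 *Nr2f1* line controls. The 5 highest genes are *Nkd1*, *Dact3*, *Wnt9b*, *Fzd10* and *Fzd9*, and the points of the lines lie close together except for the scarcest genes.

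The 5 genes with the highest control level per kb were *Nkd1* (37.7 CPM per kb), *Dact3* (29.7), *Wnt9b* (25.8), *Fzd10* (25.4) and *Fzd9* (19.9). *Wnt9b* and *Fzd10* are neighbours in this order and their levels per kb lie close together, so that their order is not secure. *Dact3*, a scaffold that binds Dishevelled, measured 87.0, 94.0 and 96.3 CPM in the *Sox2* controls and 90.1, 93.0 and 91.2 CPM in the *Sox2* mutants. Values of *Dact3* in the *Nr2f1* line were 76.6, 91.3 and 88.1 CPM in controls and 83.6, 86.0 and 86.8 CPM in mutants. Its groups overlapped in both lines, and the log2 fold changes were -0.02 and 0.00. *Fzd9*, a Frizzled receptor, measured 49.1, 43.8 and 41.6 CPM in the *Sox2* controls and 34.5, 41.9 and 44.1 CPM in the *Sox2* mutants, which overlap. Its *Nr2f1* line values of 44.7, 46.7 and 47.4 CPM in controls and 39.6, 42.7 and 38.7 CPM in mutants do not overlap, yet its log2 fold change of -0.20 had an edgeR FDR of 0.0875.

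The filter on low counts left 44 of the 51 genes to be tested in the *Sox2* line, and 43 among the *Nr2f1* libraries. *Wnt1*, *Wnt2*, *Wnt3a*, *Wnt8b*, *Wnt10a*, *Wnt10b* and *Dkk1* were too scarce to be tested in either line, and *Rspo4* was tested in the *Sox2* line only. In the *Sox2* mutants 8 of the 44 were called (18.2%), against 8.08% of all 15602 genes tested. Of the 8, 4 rose, against 3.90% of all genes, and 4 fell, against 4.19%. In the *Nr2f1* mutants 6 of 43 were called (14.0%), against 2.54% of all 15600 genes tested. Of these 6, 3 rose, against 1.22% of all genes, and 3 fell, against 1.32%. The *Sox2* count was 3 without control 1, 3 without control 2, 10 without control 3, 7 without mutant 3 and 2 without mutant 4, and the *Nr2f1* count was 3 without mutant A and 11 without mutant B. DESeq2, a second test of the same counts, called all of these and, in the *Sox2* line, also *Wnt3*, *Wnt5a*, *Fzd4*, *Lrp5*, *Dkk3*, *Rspo1*, *Rspo2* and *Dact2*, and among the *Nr2f1* libraries *Wnt3*, *Wnt4*, *Wnt9a*, *Fzd2* and *Lrp5*. These make 16 of 44 and 11 of 43, against 15.8% and 7.13% of all genes tested with DESeq2. The median log2 fold change of the tested Wnt genes was 0.26 in *Sox2* mutants and 0.28 in *Nr2f1* mutants, beside 0.0005 and 0.0138 for all genes tested. Since the genes were chosen with results of these data known, nothing is read from these shares about Wnt signalling as a whole.

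The lines shared 3 called genes, *Wnt9b*, *Dkk4* and *Dact1*, which are 37.5% of the *Sox2* calls and 50% of the *Nr2f1* calls, while over all genes tested the 180 shared calls are 14.3% and 45.5%. *Wnt9b* and *Dkk4* fell in both, and *Dact1* fell in the *Sox2* mutants and rose in the *Nr2f1* mutants. In all, 11 Wnt genes were called in at least 1 line and 40 in neither. Library by library, mutants and controls did not overlap for 24 of the 44 tested genes in the *Sox2* line, against 37.9% of all genes tested, and for 20 of the 43 in the *Nr2f1* line, against 28.6%. The plot of single libraries shows the 11 called genes, and the plot of fold changes shows every tested gene by role.

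**Figure D2:**
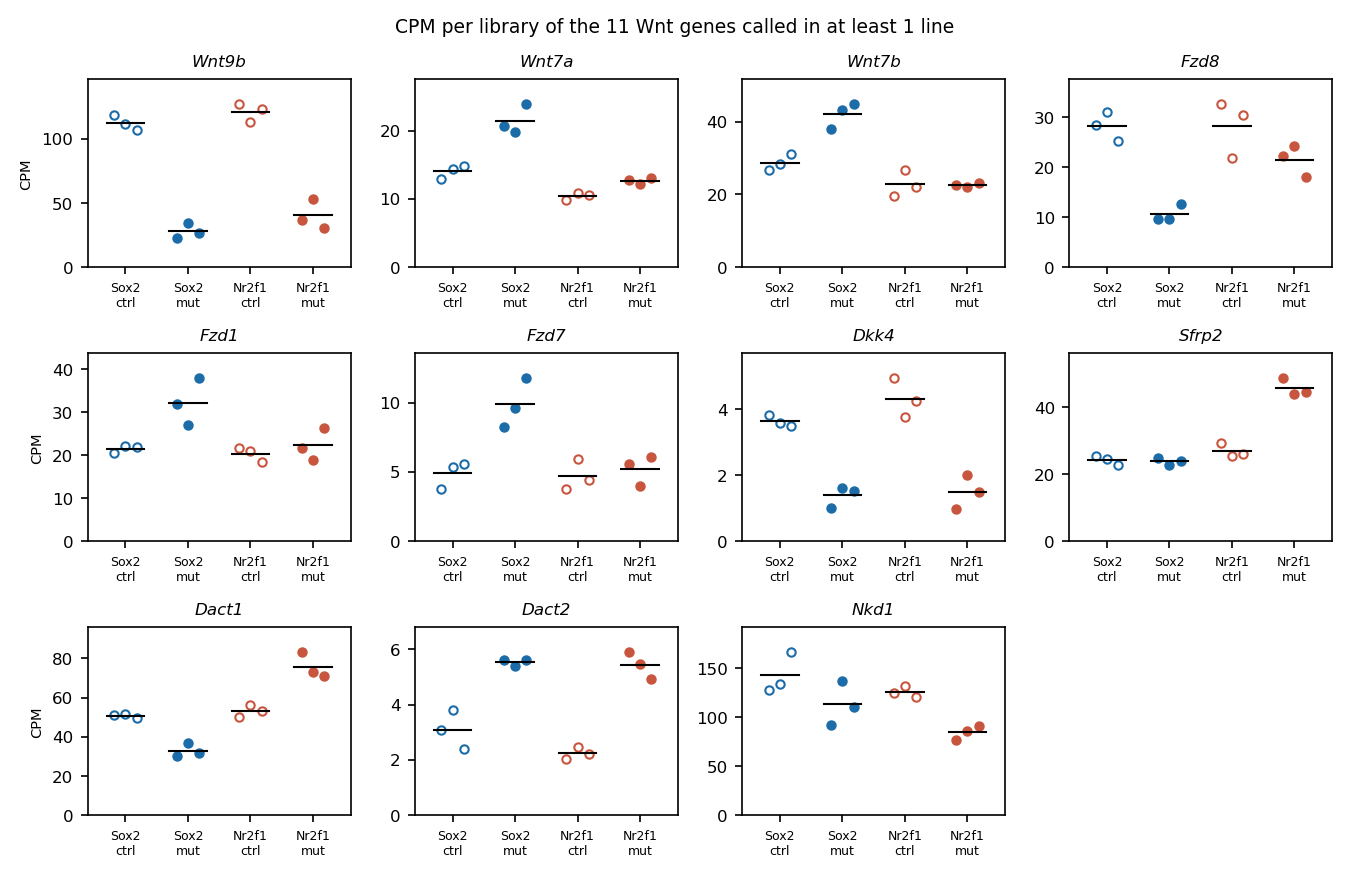
CPM in every library (vertical axis, starting at 0) for the 11 Wnt genes called in at least 1 line; open circles are controls and filled circles mutants of the *Sox2* line (blue) and the *Nr2f1* line (red), and black bars are group means of 3 libraries. *Wnt9b* and *Dkk4* are low in the mutants of both lines, *Dact1* moves in opposite directions, and *Sfrp2* stands higher in the *Nr2f1* mutants than in its other 3 groups.

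**Figure D3:**
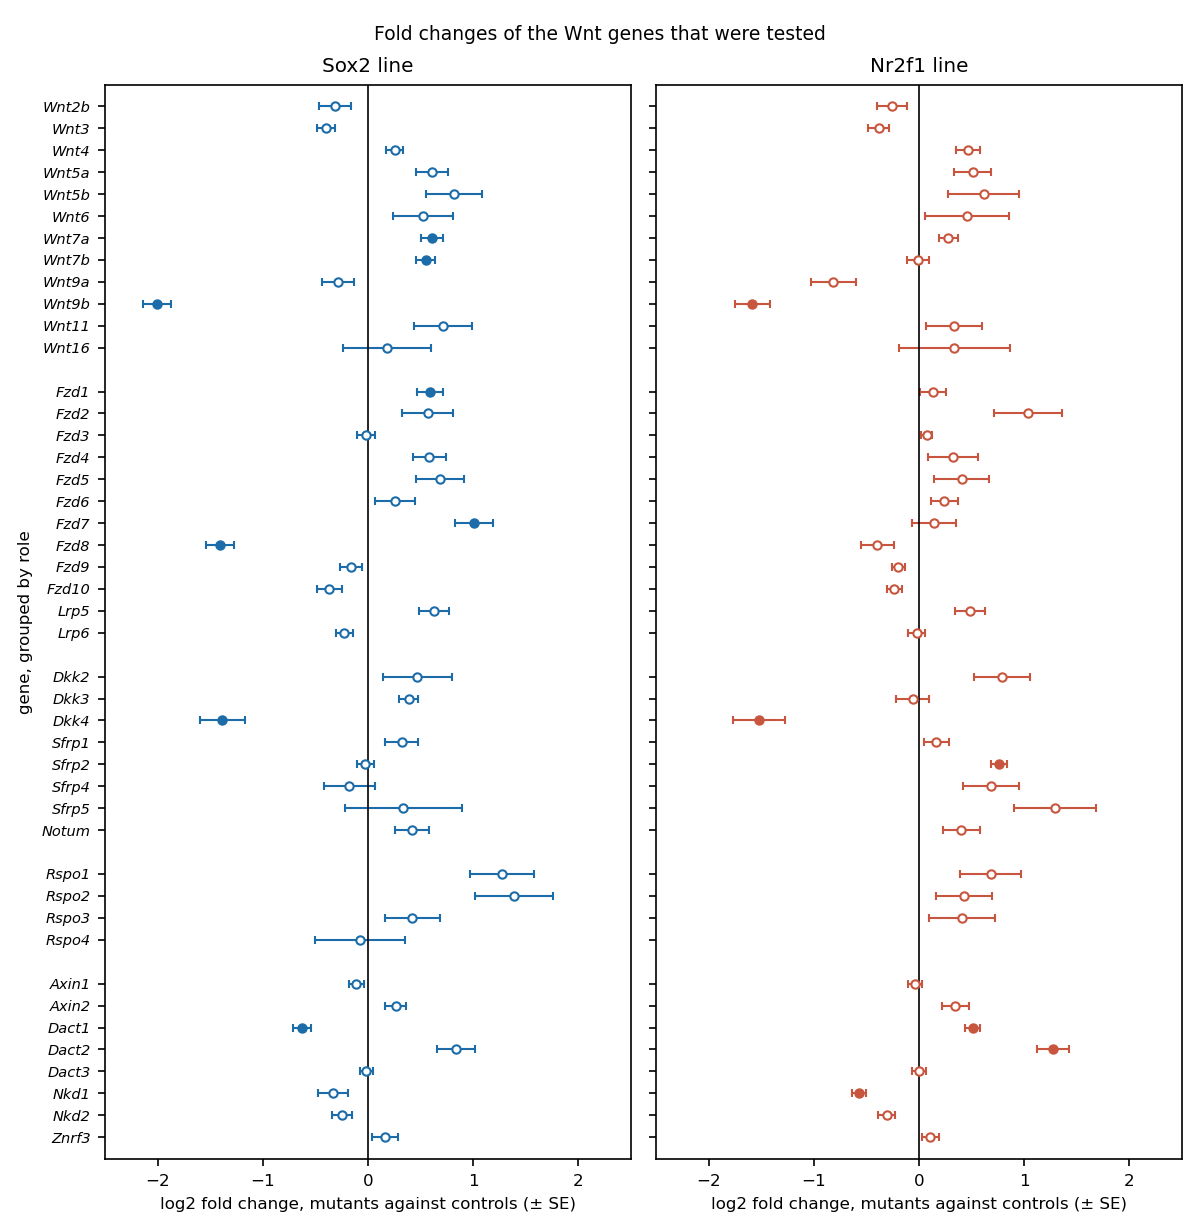
Log2 fold change of mutants against controls (horizontal axis, bars are ± 1 SE) for each tested Wnt gene, grouped by role, in the *Sox2* line (left) and the *Nr2f1* line (right); filled points have an FDR below 0.01. *Wnt9b*, *Fzd8* and *Dkk4* lie farthest below 0 in the *Sox2* line, and *Wnt9b* and *Dkk4* in the *Nr2f1* line.

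Of the 12 ligands tested in the *Sox2* line, *Wnt7a* and *Wnt7b* rose and *Wnt9b* fell, and of the 12 tested in the *Nr2f1* line *Wnt9b* alone was called. *Wnt9b*, a ligand best known from kidney and craniofacial development, was the ligand with the highest level per kb in control dLGN. In libraries of the *Sox2* line, *Wnt9b* measured 118, 111 and 107 CPM in controls and 22.7, 34.3 and 26.8 CPM in mutants. No mutant came near a control, and *Wnt9b* was 4.02-fold lower, a log2 fold change of -2.01 ± 0.13 (SE, n = 3) with an edgeR FDR of 2.95e-05. *Wnt9b* in the *Nr2f1* line measured 127, 113 and 123 CPM in controls and 36.9, 53.4 and 30.8 CPM in mutants. The groups were again well apart, and *Wnt9b* was 3.00-fold lower, a log2 fold change of -1.58 ± 0.16 (SE, n = 3) with an edgeR FDR of 6.40e-04. The fall differed between the lines by -0.41 on the log2 scale, with an edgeR FDR of 0.442 for the difference. In these bulk libraries, fewer cells that express a gene and less RNA per cell cannot be told apart. With the mean level of the Y-linked genes of each pool as a covariate, the edgeR FDR of *Wnt9b* in the *Nr2f1* line was 0.0134 and its log2 fold change -1.53.

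Y-linked genes enter here because the pools differed in them. The 4 genes (the most abundant being *Eif2s3y*) summed to 33.6, 114 and 36.1 CPM in the *Sox2* controls and 110, 67.9 and 54.3 CPM in the *Sox2* mutants. They summed to 43.6, 69.1 and 97.4 CPM in the *Nr2f1* controls and to 0, 32.5 and 52.1 CPM in the *Nr2f1* mutants, so that mutant A had none of these counts. With this covariate, the called Wnt genes numbered 6 in the *Sox2* line and 1, *Sfrp2*, in the *Nr2f1* line, while the called genes of the whole table numbered 864 and 84. The log2 fold changes of the lost calls with the covariate were 0.61 for *Wnt7a*, 0.59 for *Fzd1* and 1.01 for *Fzd7* in the *Sox2* line (0.61, 0.59 and 1.01 without it), and -1.53 for *Wnt9b*, -1.26 for *Dkk4*, 0.42 for *Dact1*, 1.20 for *Dact2* and -0.50 for *Nkd1* in the *Nr2f1* line (-1.58, -1.52, 0.51, 1.27 and -0.57 without it). The part of sex in the results was not tested beyond this fit.

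*Wnt9b* lies on the minus strand at chr11:103727362-103775272 of GRCm38 in RefSeq, beside *Wnt3*, which lies on the plus strand at chr11:103774175-103818021. In RefSeq these neighbours overlap by 1098 bases, whereas the Ensembl annotation ends *Wnt9b* at 103749821, well short of *Wnt3*. The study's methods name a dated release of RefSeq transcripts for mapping but not the strand of counting. That release was not analysed here, and if it holds the longer span, reads in the overlap could have gone to either gene. *Wnt3*, a canonical ligand, measured 58.6, 50.6 and 52.3 CPM in the *Sox2* controls and 38.6, 39 and 44.5 CPM in the *Sox2* mutants. Its values in the *Nr2f1* line were 55.5, 43.1 and 48.5 CPM in controls and 34.5, 41.3 and 36.8 CPM in mutants. Mutants lay below controls in both lines, by log2 fold changes of -0.40 and -0.38 that missed the threshold in edgeR (FDR of 0.0110 and 0.0492) and passed it in DESeq2 (adjusted p of 4.80e-04 and 0.00224). With replicate number as a block, the edgeR FDR of *Wnt3* in the *Sox2* line was 5.58e-04. Other close pairs of Wnt genes on a chromosome are *Wnt3a* and *Wnt9a* (16097 bases apart), *Wnt6* and *Wnt10a* (6696 bases) and *Wnt1* and *Wnt10b* (11650 bases). Of these 6 genes only *Wnt6* and *Wnt9a* had enough counts to be tested within the lines, and edgeR called neither.

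The promoter of *Wnt9b* is shown because it is the 1 gene with a promoter in the RefSeq table (build GRCm38.p6) among those that fell in both lines, and the table holds none for *Dkk4*. Those of *Dact2* and *Fzd1* are shown because they are the 2 called genes with a match to a motif searched, a choice made after the values were seen. Each runs 5′ to 3′ on the gene's own strand, with the 250 bases before the start site and the 50 bases from it on, at chr11:103749772-103750071, chr17:14203782-14204081 and chr5:4758167-4758466, all on the minus strand. The start site used for *Wnt9b* is the one at which the Ensembl gene begins and lies 25451 bases inside the longer RefSeq span given above. That of *Dact2* lies 496 bases inside the RefSeq gene and 473 bases inside the Ensembl gene. The whole *Dact2* window, with its match, is thus within the annotated gene. For *Fzd1* the start site used is the one at which the RefSeq gene begins. Capitals mark the match, and *Wnt9b* has none.
Wnt9b: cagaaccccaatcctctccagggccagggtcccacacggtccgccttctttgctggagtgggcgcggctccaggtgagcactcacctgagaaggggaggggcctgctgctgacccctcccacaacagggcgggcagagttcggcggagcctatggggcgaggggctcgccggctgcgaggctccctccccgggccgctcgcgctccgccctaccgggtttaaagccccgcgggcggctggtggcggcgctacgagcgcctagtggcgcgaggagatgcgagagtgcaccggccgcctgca
Dact2: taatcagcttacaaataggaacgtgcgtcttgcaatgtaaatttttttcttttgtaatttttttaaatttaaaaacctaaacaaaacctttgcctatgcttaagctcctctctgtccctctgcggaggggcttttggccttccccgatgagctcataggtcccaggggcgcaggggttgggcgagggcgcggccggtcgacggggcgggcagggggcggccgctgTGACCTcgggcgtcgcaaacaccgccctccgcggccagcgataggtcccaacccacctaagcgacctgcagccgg
Fzd1: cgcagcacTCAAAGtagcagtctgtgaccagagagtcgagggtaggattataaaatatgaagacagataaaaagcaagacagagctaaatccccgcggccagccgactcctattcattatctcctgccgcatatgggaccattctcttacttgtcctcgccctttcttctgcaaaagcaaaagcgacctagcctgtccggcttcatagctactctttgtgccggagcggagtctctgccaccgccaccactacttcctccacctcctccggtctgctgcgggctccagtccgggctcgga
Both strands were searched for CATTGT (the core of a SOX motif), AGGTCA (a nuclear receptor half-site) and CTTTGA (the core of a TCF/LEF motif), and no motif overlaps another in these windows. Of the 32851 promoters in the table, 4129 held CATTGT (12.6%), 5340 held AGGTCA (16.3%) and 5257 held CTTTGA (16%). Promoters were found for 33 of the 51 Wnt genes, 36 promoters in all, of which 3 held CATTGT (8.33%: *Dact3*, *Wnt1*, *Wnt16*), 2 held AGGTCA (5.56%: *Dact2*, *Wnt16*) and 4 held CTTTGA (11.1%: *Dkk1*, *Fzd1*, *Wnt11*, *Wnt5b*). In *Dact2* the match is TGACCT at bases 226 to 231 of the window, and in *Fzd1* it is TCAAAG at bases 9 to 14. A match describes letters only, and its absence says nothing about the factor. Of the 11 called genes, 8 had a promoter in the table, and *Wnt7b*, *Fzd8* and *Dkk4* had none.

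*Wnt7a* and *Wnt7b* are close relatives that act, among other places, on blood vessels of the developing brain and on synapses. *Wnt7a* measured 13, 14.4 and 14.9 CPM in the *Sox2* controls and 20.7, 19.8 and 23.9 CPM in the *Sox2* mutants. All mutants lay above all controls, and *Wnt7a* rose 1.52-fold, a log2 fold change of 0.61 ± 0.11 (SE, n = 3) with an edgeR FDR of 0.00415. *Wnt7a* in the *Nr2f1* line measured 9.80, 10.9 and 10.6 CPM in controls and 12.7, 12.2 and 13 CPM in mutants. These mutants also lay above their controls, but the log2 fold change of 0.28 had an edgeR FDR of 0.0941, and the difference between the lines, 0.34, had an FDR of 0.213. The *Sox2* call of *Wnt7a* was lost without control 1, control 2 or mutant 4 (edgeR FDR of 0.0223, 0.0192 and 0.0244) and with the Y-linked covariate (0.0120), with log2 fold changes from 0.52 to 0.62 in these fits.

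*Wnt7b* measured 26.6, 28.3 and 31.0 CPM in the *Sox2* controls and 38.0, 43.1 and 44.8 CPM in the *Sox2* mutants. The mutants were all above the controls, and *Wnt7b* rose 1.47-fold, a log2 fold change of 0.55 ± 0.09 (SE, n = 3) with an edgeR FDR of 0.00326. Values of *Wnt7b* in the *Nr2f1* line were 19.6, 26.6 and 22.1 CPM in controls and 22.6, 22.1 and 23.0 CPM in mutants. Here the groups overlapped fully, with a log2 fold change of -0.01 that turned to 0.115 without control D and 0.00146 without mutant B. The difference of *Wnt7b* between the lines was 0.57 on the log2 scale, with an edgeR FDR of 0.0552 and an adjusted p of 0.00753 in DESeq2. Without control 1, control 2, mutant 3 or mutant 4, the edgeR FDR of *Wnt7b* in the *Sox2* line was 0.0199, 0.0194, 0.0107 and 0.0211, at log2 fold changes from 0.50 to 0.54.

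Among the other ligands, *Wnt4*, which signals in several organs and can act on axons, measured 40.7, 42.3 and 42.8 CPM in the *Sox2* controls and 47.6, 55.9 and 46.4 CPM in the *Sox2* mutants. In libraries of the *Nr2f1* line, *Wnt4* measured 30.9, 36.4 and 32.9 CPM in controls and 44.3, 39.7 and 54.6 CPM in mutants. Its mutants lay above its controls in both lines, with log2 fold changes of 0.25 and 0.47 that were not called by edgeR (FDR of 0.0626 and 0.0376), the latter having an adjusted p of 8.39e-04 in DESeq2. Without mutant B the *Nr2f1* value of *Wnt4* was 0.565 with an edgeR FDR of 0.00657. *Wnt5a*, the best known ligand of the branch that does not use beta-catenin, measured 17.4, 17.7 and 22.2 CPM in the *Sox2* controls and 24.2, 35.7 and 27.2 CPM in the *Sox2* mutants. The groups of *Wnt5a* were apart, and its log2 fold change of 0.61 had an edgeR FDR of 0.0220 (adjusted p of 0.00108 in DESeq2), beside 0.51 with an FDR of 0.116 in the *Nr2f1* line. The remaining tested ligands, *Wnt2b*, *Wnt5b*, *Wnt6*, *Wnt9a*, *Wnt11* and *Wnt16*, had log2 fold changes from -0.31 to 0.82 in the *Sox2* line and from -0.81 to 0.61 in the *Nr2f1* line. None of these was called by edgeR, while DESeq2 called the lowest, *Wnt9a* in the *Nr2f1* line, with an adjusted p of 9.13e-04 (edgeR FDR of 0.0518).

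The 6 ligands too scarce for a test had few counts in any library. *Wnt10a*, a canonical ligand known from skin and teeth, had 6, 7 and 3 counts in the *Sox2* controls and 8, 23 and 18 counts in the *Sox2* mutants. *Wnt10a* in the *Nr2f1* line had 8, 11 and 19 counts in controls and 2, 2 and 3 counts in mutants. Its mutants thus lay above the controls in the *Sox2* line and below them in the *Nr2f1* line. *Wnt10a* passed the filter of the joint fit only through libraries of the groups where it was high. Its log2 difference of 3.89 there rests on those same few counts, so nothing is concluded from its edgeR FDR of 0.0138. That FDR was 0.00940 without *Sox2* mutant 1, 0.00887 with legacy=FALSE and 0.0804 with the Y-linked covariate, and DESeq2 gave no adjusted p. Counts in single libraries were 2 to 19 for *Wnt1*, 0 to 19 for *Wnt2*, 0 to 12 for *Wnt3a*, 0 to 12 for *Wnt10b* and 0 to 4 for *Wnt8b*. Of these 5, *Wnt2* had 12, 7 and 19 counts in the *Sox2* controls and 0, 4 and 4 in the *Sox2* mutants, which lay below them; within the lines it was not tested, and in the joint fit its difference between the lines was -0.58 with an edgeR FDR of 0.894.

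Of the 12 receptors, *Fzd1* and *Fzd7* rose and *Fzd8* fell in the *Sox2* mutants, and none was called by edgeR in the *Nr2f1* mutants, where 5 of 12 had an unadjusted p below 0.05 (24.6% of all genes tested did) and DESeq2 called 2, *Fzd2* and *Lrp5*, both higher (7.13% of all). *Fzd8*, a Frizzled receptor that transduces canonical signals, measured 28.5, 31.1 and 25.2 CPM in the *Sox2* controls and 9.59, 9.66 and 12.7 CPM in the *Sox2* mutants. Every mutant was far below every control, and *Fzd8* was 2.65-fold lower, a log2 fold change of -1.41 ± 0.13 (SE, n = 3) with an edgeR FDR of 1.68e-04. *Fzd8* in the *Nr2f1* line measured 32.6, 21.8 and 30.5 CPM in controls and 22.3, 24.2 and 17.9 CPM in mutants. Control D lay among these mutants, and the log2 fold change of -0.40 had an edgeR FDR of 0.152. The effects of the lines on *Fzd8* differed by -1.0 on the log2 scale, with an edgeR FDR of 0.0250 for the difference, which is not a call, while DESeq2 gave it an adjusted p of 5.22e-04.

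*Fzd1* and *Fzd7* belong to 1 branch of the Frizzled family and are also used in canonical signalling. *Fzd1* measured 20.5, 22.1 and 21.8 CPM in the *Sox2* controls and 31.9, 26.9 and 38.0 CPM in the *Sox2* mutants. The mutants spread widely but all lay above the controls, and *Fzd1* rose 1.5-fold, a log2 fold change of 0.59 ± 0.12 (SE, n = 3) with an edgeR FDR of 0.00882. For the *Nr2f1* line, *Fzd1* measured 21.7, 21.0 and 18.3 CPM in controls and 21.7, 18.9 and 26.4 CPM in mutants, which overlap. Here its log2 fold change was 0.13, and -0.00823 without mutant C, and the difference between the lines was 0.46 with an edgeR FDR of 0.230. The *Sox2* call of *Fzd1* was lost without control 1, control 2, mutant 1 or mutant 4 (edgeR FDR of 0.0403, 0.0337, 0.0188 and 0.0345) and with the Y-linked covariate (0.0211), where its log2 fold change ran from 0.45 to 0.61.

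*Fzd7* measured 3.80, 5.33 and 5.60 CPM in the *Sox2* controls and 8.23, 9.59 and 11.8 CPM in the *Sox2* mutants. Its mutants were all above its controls, and *Fzd7* rose 2.01-fold, a log2 fold change of 1.01 ± 0.18 (SE, n = 3) with an edgeR FDR of 0.00531. Values of *Fzd7* in the *Nr2f1* line were 3.78, 5.93 and 4.44 CPM in controls and 5.57, 3.97 and 6.11 CPM in mutants. These overlap, with a log2 fold change of 0.14, and the difference between the lines was 0.87 with an edgeR FDR of 0.149. For *Fzd7* the *Sox2* line's edgeR FDR was 0.0220 without control 1, 0.0192 without control 2, 0.0135 without mutant 3, 0.0277 without mutant 4 and 0.0128 with the Y-linked covariate, at log2 fold changes from 0.85 to 1.07.

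The co-receptor *Lrp5* measured 19.3, 18.4 and 25.7 CPM in the *Sox2* controls and 27.4, 35.9 and 34.7 CPM in the *Sox2* mutants. In libraries of the *Nr2f1* line, *Lrp5* measured 17.1, 16.9 and 15.3 CPM in controls and 23.6, 17.7 and 27.7 CPM in mutants. *Lrp5* was thus higher in every mutant library of both lines, yet its log2 fold changes of 0.63 and 0.49 were not called by edgeR (FDR of 0.0152 and 0.0732), while DESeq2 called both (adjusted p of 3.25e-04 and 0.00772). Its edgeR FDR was 0.00190 without *Sox2* control 3, 0.00976 without *Sox2* mutant 1 and 0.00320 without *Nr2f1* mutant B, and in the *Sox2* line 0.00860 with the Y-linked covariate and 0.00262 with the replicate block. *Fzd10*, the receptor with the highest level per kb, measured 92.2, 87.6 and 91.8 CPM in the *Sox2* controls and 56.1, 82.3 and 71.7 CPM in the *Sox2* mutants. Its values in the *Nr2f1* line were 77.5, 77.8 and 67.7 CPM in controls and 61.2, 60.9 and 67.3 CPM in mutants. Mutants of *Fzd10* lay below controls in both lines, among *Nr2f1* libraries by a narrow margin, and the log2 fold changes of -0.37 and -0.24 were not called (edgeR FDR of 0.0554 and 0.0740); with replicate number as a block the *Sox2* value was -0.44 with an FDR of 0.00421. The remaining receptors, *Fzd2*, *Fzd3*, *Fzd4*, *Fzd5*, *Fzd6* and *Lrp6*, had log2 fold changes from -0.22 to 0.68 in the *Sox2* line and from -0.02 to 1.04 in the *Nr2f1* line. The highest of these, *Fzd2* in the *Nr2f1* line, measured 3.40, 3.34 and 3.17 CPM in controls and 7.13, 3.32 and 9.92 CPM in mutants, so that mutants A and C were high and mutant B was among the controls (edgeR FDR of 0.0823).

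Of the 8 secreted inhibitors tested, *Dkk4* fell in both lines and *Sfrp2* rose in the *Nr2f1* line. *Dkk4*, a Dickkopf protein that blocks *Lrp5* and *Lrp6*, measured 3.82, 3.6 and 3.51 CPM in the *Sox2* controls and 1.02, 1.62 and 1.53 CPM in the *Sox2* mutants. The groups were well apart at these low levels, and *Dkk4* was 2.61-fold lower, a log2 fold change of -1.38 ± 0.21 (SE, n = 3) with an edgeR FDR of 0.00223. *Dkk4* in the *Nr2f1* line measured 4.95, 3.77 and 4.24 CPM in controls and 0.979, 2.02 and 1.48 CPM in mutants. Again no mutant reached a control, and *Dkk4* was 2.87-fold lower, a log2 fold change of -1.52 ± 0.25 (SE, n = 3) with an edgeR FDR of 0.00692. The difference between the lines was 0.15 on the log2 scale with an edgeR FDR of 0.900. The *Sox2* call of *Dkk4* was lost without control 1, control 2 or mutant 4 (edgeR FDR of 0.0145, 0.0126 and 0.0105; log2 fold changes from -1.46 to -1.35). Its *Nr2f1* call was lost without control B, D or E or mutant A or C (0.0359, 0.0194, 0.0252, 0.0230 and 0.0236) and with the Y-linked covariate (0.0545), at log2 fold changes from -1.61 to -1.26.

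*Sfrp2*, a secreted protein that binds Wnt ligands, measured 29.3, 25.5 and 26.1 CPM in the *Nr2f1* controls and 48.7, 44.0 and 44.5 CPM in the *Nr2f1* mutants. The mutants were close to each other and all above the controls, and *Sfrp2* rose 1.70-fold, a log2 fold change of 0.76 ± 0.08 (SE, n = 3) with an edgeR FDR of 5.00e-04. For the *Sox2* line, *Sfrp2* measured 25.4, 24.6 and 22.7 CPM in controls and 24.8, 22.7 and 24.1 CPM in mutants. These overlap, and the log2 fold change of -0.02 (edgeR FDR of 0.864) turned to 0.00871 without control 1 and 0.0107 without mutant 3. The difference of *Sfrp2* between the lines was itself called, at -0.78 ± 0.11 (SE, 12 libraries) on the log2 scale with an edgeR FDR of 7.65e-04, and 231 of all 15989 genes tested for such a difference were called (1.44%).

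No other inhibitor was called by edgeR, while DESeq2 also called *Dkk3* in the *Sox2* line (adjusted p of 0.00158). *Dkk3* had the lowest FDR among them in the *Sox2* line, with 40.6, 43.2 and 45.6 CPM in controls and 50.2, 62.1 and 56.8 CPM in mutants, a log2 fold change of 0.39 and an edgeR FDR of 0.0159. *Sfrp5* had the lowest in the *Nr2f1* line, with 0.167, 0.204 and 0.239 CPM in controls and 0.678, 0.412 and 0.430 CPM in mutants, a log2 fold change of 1.29 and an edgeR FDR of 0.0758. The groups of *Dkk3* and of *Sfrp5* were apart in the lines just named, and overlapped in the other line, where the log2 fold change was -0.06 for *Dkk3* and 0.34 for *Sfrp5*. *Dkk2*, *Sfrp1*, *Sfrp4* and *Notum* had log2 fold changes from -0.18 to 0.47 in the *Sox2* line and from 0.16 to 0.79 in the *Nr2f1* line. *Dkk1*, which was not tested, had between 0 and 10 counts in each library.

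The 4 secreted agonists are the R-spondins, which bind Lgr receptors and keep *Znrf3* from removing Frizzled receptors. None was called by edgeR in either line, where 2 of 4 had an unadjusted p below 0.05 in the *Sox2* line (35% of all genes tested did) and 1 of 3 in the *Nr2f1* line (24.6% of all). DESeq2 called 2 in the *Sox2* line (15.8% of all) and 0 in the other (7.13% of all). *Rspo1* measured 1.49, 1.02 and 1.18 CPM in the *Sox2* controls and 3.36, 1.76 and 3.83 CPM in the *Sox2* mutants. Its *Nr2f1* line values were 0.856, 1.34 and 1.26 CPM in controls and 1.56, 1.45 and 2.56 CPM in mutants. *Rspo1* was higher in the mutants of both lines, most clearly in *Sox2* mutants 1 and 4, with log2 fold changes of 1.27 and 0.68 (edgeR FDR of 0.0186 and 0.187), and the *Sox2* value was 1.54 with an FDR of 0.00371 without mutant 3. *Rspo2* measured 0.882, 1.04 and 0.346 CPM in the *Sox2* controls and 2.51, 1.58 and 1.88 CPM in the *Sox2* mutants. Values of *Rspo2* in the *Nr2f1* line were 0.904, 0.978 and 0.718 CPM in controls and 1.46, 1.04 and 1.01 CPM in mutants. Mutants of *Rspo2* lay above controls in both lines, narrowly so in the *Nr2f1* line, with log2 fold changes of 1.38 and 0.43 (edgeR FDR of 0.0283 and 0.369). For the *Sox2* line, *Rspo2* had 1.78 with an FDR of 0.000238 with the replicate block and 1.39 with 0.00875 in a fit over all 12 libraries, where *Rspo1* had 1.28 with 0.00961. The 2 that DESeq2 called are *Rspo1* and *Rspo2*, with adjusted p-values of 0.00106 and 0.00364. *Rspo3* had log2 fold changes of 0.42 and 0.41 in the lines, *Rspo4* had -0.08 in the *Sox2* line, and *Rspo4* had 4 to 15 counts in single libraries.

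Of the 8 intracellular and feedback genes, *Dact1* fell in *Sox2* mutants, while *Nr2f1* mutants had higher *Dact1* and *Dact2* and lower *Nkd1*. *Dact1*, a scaffold that binds Dishevelled and acts in Wnt signalling and at synapses, measured 51.3, 51.8 and 49.5 CPM in the *Sox2* controls and 30.1, 37.0 and 32.0 CPM in the *Sox2* mutants. The mutants were all below the controls, and *Dact1* was 1.54-fold lower, a log2 fold change of -0.62 ± 0.09 (SE, n = 3) with an edgeR FDR of 0.00123. In libraries of the *Nr2f1* line, *Dact1* measured 50.4, 56.1 and 53.1 CPM in controls and 83.3, 73.0 and 71.0 CPM in mutants. Here the mutants were all above the controls, and *Dact1* rose 1.42-fold, a log2 fold change of 0.51 ± 0.07 (SE, n = 3) with an edgeR FDR of 0.00355. The controls of the lines were alike, and the opposite changes differed by -1.13 ± 0.12 (SE, 12 libraries) on the log2 scale with an edgeR FDR of 1.06e-04 for the difference. *Dact1* lost its *Sox2* call without mutant 4 (log2 fold change of -0.60, edgeR FDR of 0.0103). Its *Nr2f1* call was lost without control B, D or E or mutant A (0.0205, 0.0111, 0.0163 and 0.0150) and with the Y-linked covariate (0.0314), at log2 fold changes from 0.42 to 0.55.

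*Dact2*, a relative of *Dact1*, measured 2.05, 2.46 and 2.22 CPM in the *Nr2f1* controls and 5.90, 5.48 and 4.93 CPM in the *Nr2f1* mutants. The groups lay far apart, and *Dact2* rose 2.42-fold, a log2 fold change of 1.27 ± 0.15 (SE, n = 3) with an edgeR FDR of 0.00141. *Dact2* in the *Sox2* line measured 3.10, 3.79 and 2.39 CPM in controls and 5.63, 5.38 and 5.62 CPM in mutants. These mutants too were all above their controls, with a log2 fold change of 0.84 and an edgeR FDR of 0.0113, and 7 of the 15 alternative settings brought this below 0.01. The difference between the lines was -0.43 with an edgeR FDR of 0.387. The *Nr2f1* call of *Dact2* was lost without mutant A (log2 fold change of 1.21, edgeR FDR of 0.0114) and with the Y-linked covariate (1.20 and 0.0172).

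*Nkd1*, a target of canonical signalling that restrains it through Dishevelled, had the highest level per kb of all 51 genes. It measured 125, 132 and 121 CPM in the *Nr2f1* controls and 77.1, 86.0 and 90.6 CPM in the *Nr2f1* mutants. The mutants were all below the controls, and *Nkd1* was 1.49-fold lower, a log2 fold change of -0.57 ± 0.07 (SE, n = 3) with an edgeR FDR of 0.00123. For the *Sox2* line, *Nkd1* measured 128, 134 and 166 CPM in controls and 91.7, 137 and 111 CPM in mutants, where mutant 3 lay among the controls. Its *Sox2* line log2 fold change was -0.34 (edgeR FDR of 0.127), and the difference between the lines was 0.24 with an FDR of 0.594. The *Nr2f1* call of *Nkd1* was lost with the Y-linked covariate (log2 fold change of -0.50, edgeR FDR of 0.0115) and in a fit over all 12 libraries (-0.57 and 0.0182).

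*Nkd2*, its close relative, measured 27.2, 25.9 and 28.3 CPM in the *Sox2* controls and 21.0, 22.1 and 25.6 CPM in the *Sox2* mutants. Values of *Nkd2* in the *Nr2f1* line were 27.6, 27.1 and 28.9 CPM in controls and 20.4, 24.9 and 22.2 CPM in mutants. Mutants of *Nkd2* were below controls in both lines by small log2 fold changes, -0.24 and -0.31, that were not called (edgeR FDR of 0.0989 and 0.0563). *Axin2*, the most widely used readout gene of canonical signalling, measured 51.7, 63.3 and 59.1 CPM in the *Sox2* controls and 61.3, 76.0 and 71.5 CPM in the *Sox2* mutants. In libraries of the *Nr2f1* line, *Axin2* measured 44.9, 50.7 and 44.5 CPM in controls and 60.6, 47.1 and 70.2 CPM in mutants. *Axin2* overlapped between groups in both lines, and its log2 fold changes of 0.26 and 0.34 were not called (edgeR FDR of 0.0944 and 0.132). *Axin2*, *Wnt5a*, *Fzd2*, *Dkk3* and *Sfrp5* were picked for a description by library after their values were seen. *Axin1*, a core part of the complex that destroys beta-catenin, and *Znrf3*, which removes Frizzled receptors, had log2 fold changes of -0.11 and 0.16 in the *Sox2* line and of -0.04 and 0.11 in the *Nr2f1* line.

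Other genes of the pathway were taken from a list of 63 written by role, of which 61 were tested in each line. In the *Sox2* mutants 9 were called (14.8%, against 8.08% of all genes tested), 6 of them lower and 3 higher, and in the *Nr2f1* mutants 4 (6.56%, against 2.54%), 3 lower and 1 higher. The *Sox2* count was 4 without control 1, 3 without control 2, 4 without mutant 1, 6 without mutant 3 and 3 without mutant 4. The *Nr2f1* count was 2 without control B, 2 without mutant A and 7 without mutant B. The median log2 fold change of the list was -0.02 and 0.02. The 2 secretion genes (*Porcn*, *Wls*) had 0 calls by edgeR in either line, with 1 gene, *Porcn*, at an unadjusted p below 0.05 and called by DESeq2 in the *Sox2* line (35% and 15.8% of all genes tested), while 4 of the 13 nuclear genes and 3 of the 13 planar cell polarity genes were called in the *Sox2* line. Several called genes overlap others in the Ensembl annotation, and with the strand of counting unknown some of their reads may belong to those. On the opposite strand lie AU022754 (*Wnt7b*), Gm26771 (*Sfrp2*), 4930474H06Rik (*Dact1*), AC151292.1 (*Dact2*), A930009A15Rik (*Lgr5*), Gm43352 (*Lef1*), Gm11250 (*Tle1*), Gm16160 (*Vangl1*) and A830082K12Rik (*Nr2f1*), and on the same strand Gm45496 (*Nkd1*) and Gm42449 (*Lef1*). The plot of other pathway genes shows the 10 called in at least 1 line.

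**Figure D4:**
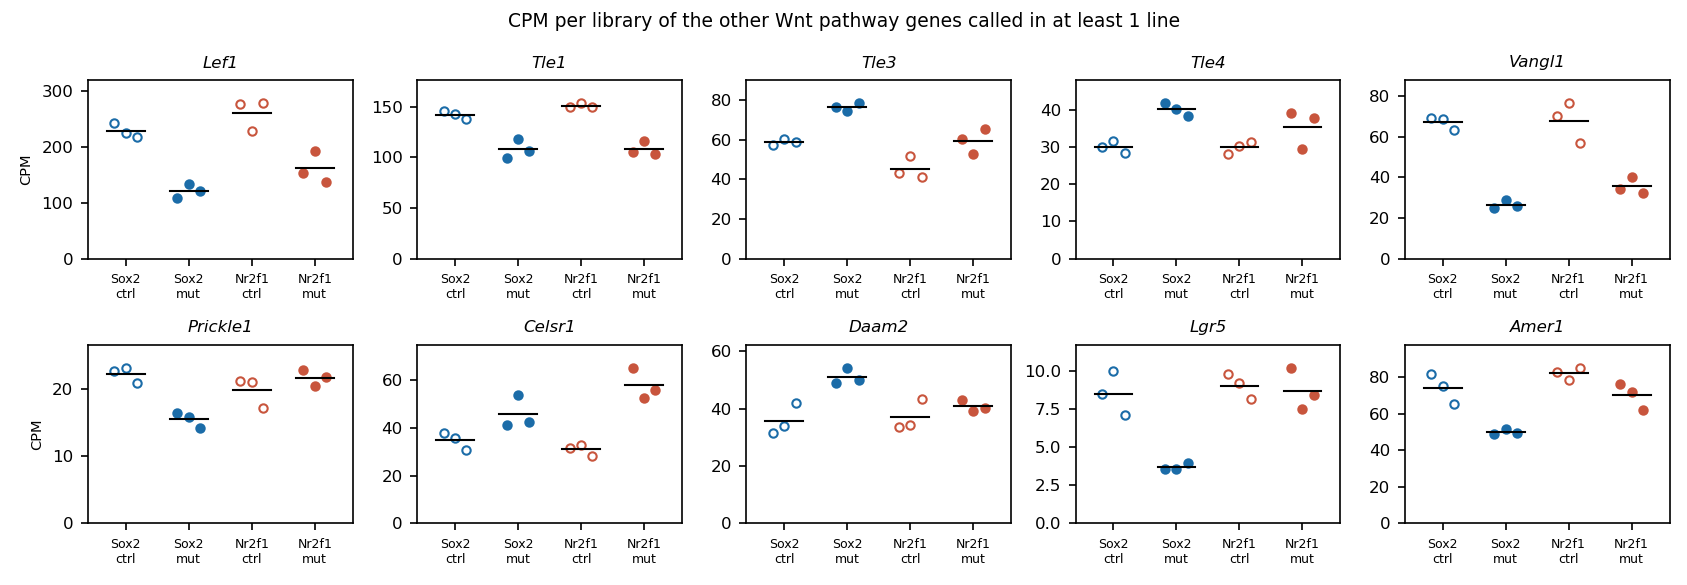
CPM in every library (vertical axis, starting at 0) for the 10 other Wnt pathway genes called in at least 1 line; open circles are controls and filled circles mutants of the *Sox2* line (blue) and the *Nr2f1* line (red), and black bars are group means of 3 libraries. *Lef1*, *Vangl1* and *Tle1* are lower in the mutants of both lines, and *Lgr5* is lower in the *Sox2* mutants.

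*Lef1*, a TCF/LEF factor through which beta-catenin acts on many genes, measured 243, 225 and 218 CPM in the *Sox2* controls and 109, 135 and 121 CPM in the *Sox2* mutants. Its values in the *Nr2f1* line were 278, 229 and 279 CPM in controls and 153, 194 and 138 CPM in mutants. All mutants lay below all controls, and *Lef1* fell in both lines by log2 fold changes of -0.91 ± 0.09 and -0.70 ± 0.12 (SE, n = 3; edgeR FDR of 1.91e-04 and 0.00853). The *Nr2f1* call of *Lef1* was lost without any 1 of control B, D or E or mutant A or C (edgeR FDR of 0.0433, 0.0129, 0.0358, 0.0532 and 0.0215) and with the Y-linked covariate (0.0783), at log2 fold changes from -0.78 to -0.60. The TCF/LEF genes *Tcf7*, *Tcf7l1* and *Tcf7l2* went the other way. Their DESeq2 log2 fold changes were 0.22, 0.69 and 0.12 in the *Sox2* line and 0.37, 0.20 and 0.25 in the *Nr2f1* line. No call was made by edgeR. DESeq2 called *Tcf7l1* in the *Sox2* line (adjusted p of 1.39e-04, edgeR FDR of 0.0124) and *Tcf7l2* in the *Nr2f1* line (2.43e-04 and 0.0138). *Tle1*, a co-repressor that binds TCF/LEF factors, measured 146, 143 and 138 CPM in the *Sox2* controls and 99.6, 119 and 107 CPM in the *Sox2* mutants. *Tle1* in the *Nr2f1* line measured 150, 153 and 149 CPM in controls and 105, 116 and 103 CPM in mutants. *Tle1* thus lay lower in every mutant, with log2 fold changes of -0.39 and -0.48 (edgeR FDR of 0.00601 and 0.00112). Its *Sox2* call was lost without control 1, control 2, mutant 1 or mutant 4 (edgeR FDR of 0.0312, 0.0323, 0.0255 and 0.0363), and both calls with the Y-linked covariate (0.0196 and 0.0173). Over these fits its log2 fold change ran from -0.39 to -0.33 in the *Sox2* line, and it was -0.46 in the *Nr2f1* line. With replicate number as a block, *Tle1*, *Tle3* and *Prickle1* were no longer called in the *Sox2* line (log2 fold changes of -0.38, 0.38 and -0.44, edgeR FDR of 0.0118, 0.0102 and 0.0206).

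The co-repressor *Tle3* measured 57.2, 60.6 and 58.8 CPM in the *Sox2* controls and 76.7, 74.4 and 78.5 CPM in the *Sox2* mutants. Its groups lay well apart, and *Tle3* rose by a log2 fold change of 0.38 (edgeR FDR of 0.00347), a call lost without control 1, control 2, mutant 1 or mutant 4 (0.0157, 0.0166, 0.0123 and 0.0239) and with the Y-linked covariate (0.0144), at log2 fold changes from 0.36 to 0.40. Its *Nr2f1* mutants also lay above their controls, with a log2 fold change of 0.40 that edgeR did not call (FDR of 0.0453) and DESeq2 did (adjusted p of 0.00233), and the difference between the lines was -0.01 with an edgeR FDR of 0.984. *Tle4*, of the same family, rose by 0.42 on the log2 scale in the *Sox2* line (edgeR FDR of 0.00501), a call lost without control 1, control 2, mutant 1, mutant 3 or mutant 4 (0.0218, 0.0161, 0.0188, 0.0135 and 0.0172) and with the Y-linked covariate (0.0164), at values from 0.39 to 0.46. Its *Nr2f1* line value was 0.24 (edgeR FDR of 0.193), and the difference between the lines had an edgeR FDR of 0.572. *Amer1*, a membrane protein of the destruction complex, measured 81.7, 75.2 and 65.3 CPM in the *Sox2* controls and 49.1, 51.8 and 49.3 CPM in the *Sox2* mutants. *Amer1* was lower in every *Sox2* mutant, by a log2 fold change of -0.57 (edgeR FDR of 0.00222), and its call was lost without control 2 or mutant 4 (0.0146 and 0.0155, both at a log2 fold change of -0.56). In the *Nr2f1* line *Amer1* had -0.23 (edgeR FDR of 0.101), and its difference between the lines had an edgeR FDR of 0.175. *Lgr5*, a receptor for R-spondins, measured 8.43, 9.94 and 7.09 CPM in the *Sox2* controls and 3.58, 3.55 and 3.96 CPM in the *Sox2* mutants. The *Sox2* mutants were all far below, and *Lgr5* fell by 1.20 ± 0.15 (SE, n = 3) on the log2 scale with an edgeR FDR of 8.42e-04. For the *Nr2f1* line, *Lgr5* measured 9.75, 9.19 and 8.11 CPM in controls and 10.2, 7.50 and 8.39 CPM in mutants, which overlap. The difference of *Lgr5* between the lines was called, at -1.14 ± 0.20 (SE, 12 libraries) with an edgeR FDR of 0.00649. That call was kept without *Sox2* control 3 or *Nr2f1* mutant B, and lost without each other library: *Sox2* control 1 (0.0176), control 2 (0.0208), mutant 1 (0.0172), mutant 3 (0.0181) and mutant 4 (0.0151), and *Nr2f1* control B (0.0127), control D (0.0207), control E (0.0235), mutant A (0.0207) and mutant C (0.0121). It was also lost with the Y-linked covariate (-0.99, edgeR FDR of 0.0415), and over all fits that lost it the difference ran from -1.18 to -0.99.

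Among the planar cell polarity genes, which orient cells and guide axons, *Vangl1* measured 68.9, 68.7 and 63.1 CPM in the *Sox2* controls and 24.6, 28.9 and 25.7 CPM in the *Sox2* mutants. Values of *Vangl1* in the *Nr2f1* line were 70.0, 76.3 and 56.6 CPM in controls and 34.1, 40.2 and 32.3 CPM in mutants. No mutant reached a control, and *Vangl1* fell in both lines by log2 fold changes of -1.34 ± 0.08 and -0.93 ± 0.12 (SE, n = 3; edgeR FDR of 2.45e-05 and 0.00180). Its *Nr2f1* call was lost without control B (log2 fold change of -0.91, edgeR FDR of 0.0127), without mutant A (-0.90 and 0.0149) and with the Y-linked covariate (-0.91 and 0.0250). *Celsr1*, an atypical cadherin of the same system, measured 31.6, 33.1 and 28.3 CPM in the *Nr2f1* controls and 65.2, 52.8 and 56.1 CPM in the *Nr2f1* mutants. Its mutants were all above, and *Celsr1* rose 1.87-fold, a log2 fold change of 0.90 ± 0.09 (SE, n = 3) with an edgeR FDR of 5.67e-04. In the *Sox2* line its log2 fold change was 0.40 with an edgeR FDR of 0.0395 (adjusted p of 0.00907 in DESeq2, and 0.46 with an edgeR FDR of 0.00428 with replicate number as a block), and the difference between the lines, -0.50, had an FDR of 0.123. *Prickle1* measured 22.7, 23.1 and 21.0 CPM in the *Sox2* controls and 16.4, 15.9 and 14.2 CPM in the *Sox2* mutants. Its mutants were all below its controls, with a log2 fold change of -0.52 (edgeR FDR of 0.00493), a call lost without control 1, control 2, mutant 1, mutant 3 or mutant 4 (0.0246, 0.0283, 0.0103, 0.0116 and 0.0293) at log2 fold changes from -0.56 to -0.47. *Prickle1* in the *Nr2f1* line had a log2 fold change of 0.13 (edgeR FDR of 0.443). DESeq2 called its difference between the lines, at -0.64 with an adjusted p of 3.98e-04, while edgeR did not (FDR of 0.0155). *Daam2*, a formin that binds Dishevelled, rose by 0.51 on the log2 scale in the *Sox2* line (edgeR FDR of 0.00958), a call lost without control 1, control 2, mutant 1, mutant 3 or mutant 4 (0.0466, 0.0507, 0.0207, 0.0299 and 0.0363) and with the Y-linked covariate (0.0182), at values from 0.43 to 0.55. In the *Nr2f1* line *Daam2* had 0.14 (edgeR FDR of 0.432), and its difference between the lines had an edgeR FDR of 0.252.

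Markers of other cell types moved beside the Wnt genes that were higher in mutants. In the *Sox2* line, beside *Wnt7a*, *Wnt7b*, *Fzd1* and *Fzd7*, microglial markers (7 genes, the most abundant being *Csf1r*) summed to 98.0, 100 and 112 CPM in controls and 212, 242 and 245 CPM in mutants, and 6 of the 7 rose (3.90% of all genes tested). Astrocyte markers (7 genes, the most abundant being *Aqp4*) summed to 1211, 1208 and 1353 CPM in these controls and 1812, 1998 and 2014 CPM in these mutants, and 5 of the 7 rose, against the same 3.90%. In the *Nr2f1* line, beside *Sfrp2*, *Dact1* and *Dact2*, the astrocyte list summed to 1007, 986 and 1002 CPM in controls and 1150, 1140 and 1283 CPM in mutants, and 1 of the 7 rose (1.22% of all genes tested). There the microglial list summed to 75.9, 83.0 and 87.6 CPM in controls and 114, 97.5 and 127 CPM in mutants, with 0 of the 7 called by edgeR, 5 at an unadjusted p below 0.05 (24.6% of all genes tested) and 3 called by DESeq2 (7.13% of all). Meningeal fibroblast markers (7 genes, the most abundant being *Col3a1*) were uneven, with 709, 1032 and 1082 CPM in the *Nr2f1* controls and 1945, 1027 and 2383 CPM in the *Nr2f1* mutants. Mutants A and C were thus the high ones, as they were for *Fzd2*, *Lrp5*, *Wnt4*, *Wnt5a* and *Axin2*, and mutant B was the lowest of the mutants in each. This pattern is not particular to the meningeal list. Mutant B was also the lowest *Nr2f1* mutant in the astrocyte, microglial, GABAergic, midbrain-derived interneuron, endothelial, pericyte and choroid plexus sums. Of the meningeal list 0 genes were called by edgeR or DESeq2 in either line, while 6 of 7 had an unadjusted p below 0.05 in the *Nr2f1* line and 3 of 7 in the *Sox2* line, against 24.6% and 35% of all genes tested. In the *Sox2* line the meningeal list summed to 939, 929 and 1860 CPM in controls and 1424, 3226 and 1704 CPM in mutants, where control 3 and mutant 3 stood out, as mutant 3 did for *Wnt4* and *Wnt5a*. Control 3 and mutant 3 were also the highest of their groups in the endothelial and pericyte sums. No gene of these lists was at 0 in every library of a line, and their part in the Wnt results was not tested. The plot of marker lists shows these and other lists by library.

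**Figure D5:**
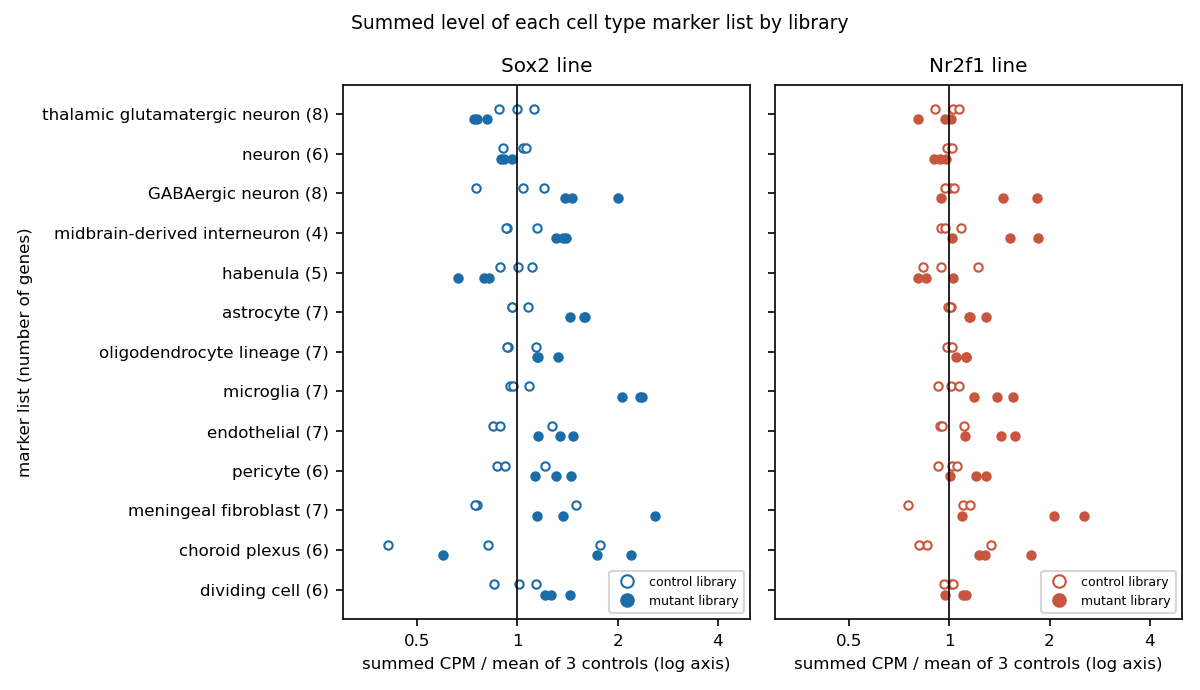
Summed CPM of each cell type marker list in every library, divided by the mean of the 3 controls of its line (horizontal log axis), for the *Sox2* line (left, blue) and the *Nr2f1* line (right, red); open circles are controls, filled circles mutants, and numbers in brackets are genes in the list. Microglial and astrocyte sums are higher in all *Sox2* mutants, and meningeal sums are high in *Nr2f1* mutants A and C.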

How the data were processed

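RNA-seq was measured in 12 libraries of 4 groups, each a pool of 3 animals. As the study's methods state, the authors mapped reads with STAR to a dated release of RefSeq transcripts from UCSC and used RSEM to estimate expression; versions of these tools are not given, nor is the strand of counting. The deposited values are expected counts per gene without normalization, in 1 table for each line, with 7.77% of 293760 values not whole (tolerance 1e-06); they were rounded. Columns name the group, so libraries were matched to groups and not to single samples. Genes were filtered with filterByExpr (minimum count 10, minimum total 15), scaled by TMM and tested in edgeR 4.0.16 (R 4.3.3) by its quasi-likelihood F-test, line by line over all genes, with the difference between the lines tested in a joint fit of 12 libraries. Calls had a Benjamini-Hochberg FDR below 0.01. With 3 against 3 libraries, an exact two-sided permutation test of a single gene cannot go below p = 0.1.

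Described by library were the called Wnt genes, the 5 with the highest control CPM per kb, those whose groups lay apart in both lines, and up to 8 other pathway genes with the smallest p. Genes, lists and rule were chosen with earlier results of these data known. Marker lists covered thalamic glutamatergic, general, GABAergic and habenular neurons, midbrain-derived interneurons, astrocytes, oligodendrocyte lineage, microglia, endothelium, pericytes, meningeal fibroblasts, choroid plexus, dividing cells and Y-linked genes; a list of pallial markers is not reported here. Alternatives were DESeq2 1.42.0, FDR below 0.05, other filters and scalings, legacy=FALSE, 1 fit over all libraries, a replicate block, a Y-linked covariate and leaving out each library; *Sox2* and *Nr2f1* themselves were put through these after their values were seen. Promoters and positions come from RefSeq on GRCm38; gene overlaps come from the Ensembl annotation given.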

Additional observations from a re-analysis of the deposited data

Results flagged for a closer look

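For 3 genes, the change in the *Sox2* mutants differed from that in the *Nr2f1* mutants by the test of the difference in the joint fit of 12 libraries. *Dact1* differed by -1.13 on the log2 scale, since it fell in the *Sox2* mutants and rose in the *Nr2f1* mutants. *Sfrp2* differed by -0.78, with a rise in the *Nr2f1* mutants and overlapping groups in the *Sox2* line. *Lgr5* differed by -1.14, with a fall in the *Sox2* mutants and overlapping groups in the *Nr2f1* line. This last is the least secure, being called under 8 of 19 alternatives and not with the Y-linked covariate, whereas those of *Dact1* and *Sfrp2* were called under all 19. The cause of these differences was not tested. Groups of 3 libraries are too small for a test of single outlying libraries.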

How the results depend on the processing

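The count of Wnt genes called in the *Sox2* mutants (8) became 16 at an FDR below 0.05 and 16 with DESeq2, and lay between 2 and 10 when 1 library was left out. Over all genes the 1261 calls of this line became 3095, 2468 and between 494 and 2161 in the same fits. The other pathway genes called in the *Sox2* mutants (9) became 14 at an FDR below 0.05 and 14 with DESeq2, and lay between 3 and 13 without 1 library. In the *Nr2f1* mutants, the Wnt genes called (6) became 11 with DESeq2 and 1 with the Y-linked covariate, and lay between 3 and 11 without 1 library, while the 396 calls over all genes became 1112, 84 and between 133 and 868. The other pathway genes called there (4) became 8 at an FDR below 0.05, 7 with DESeq2 and 1 with the Y-linked covariate, and lay between 2 and 7 without 1 library. The Wnt genes called for the difference between the lines (2) became 4 at an FDR below 0.05 and 4 with DESeq2, and numbered 2 or 3 without 1 library, and the 231 over all genes became 538, 544 and between 133 and 308. A higher FDR limit adds calls by construction. Leaving out a library leaves fewer samples, yet the calls rose in some of these fits. Over all genes they rose from 1261 to 2161 without *Sox2* control 3 and from 396 to 868 without *Nr2f1* mutant B. Replicates were also compared in pairs by chi-square per degree of freedom over genes, which grows as 2 libraries differ more. In the *Sox2* controls it was 10.8 for 1 and 2, 39.6 for 1 and 3 and 32.9 for 2 and 3. In the *Nr2f1* mutants it was 15.4 for A and B, 14.5 for A and C and 22.0 for B and C. The cause of these rises and of the other changes was not tested. *Sox2*, *Wnt9b* and *Fzd8* in the *Sox2* line were called under all 15 alternatives, *Nr2f1* and *Sfrp2* in the *Nr2f1* line under all 14, and the differences of *Dact1* and *Sfrp2* under all 19. Of the other pathway genes, *Lgr5*, *Lef1* and *Vangl1* in the *Sox2* line were called under all 15 and *Celsr1* in the *Nr2f1* line under all 14.

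With the shared column number as a replicate block, 14 Wnt genes were called in the *Sox2* line, and all 8 of the earlier ones were among them, while calls over all genes rose from 1261 to 1611. Control 2 and mutant 4 have numbers of their own, so this fit takes its fold changes from the other 4 libraries and keeps 1 residual degree of freedom. Across genes, the deviations of control 1 and mutant 1 correlated at r = 0.217 and those of control 3 and mutant 3 at 0.206, while pairs with different numbers ran from -0.362 (control 3 and mutant 1) to 0.236 (control 2 and mutant 1). The labels do not say that a number marks a pair, and only numbers 1 and 3 occur in both groups, so the fit without a block was kept. In the *Nr2f1* line no such block was possible, because its columns share only the letter B between groups.

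Sign changes were seen only for values near 0 that were not called. *Sfrp2* in the *Sox2* line became 0.0205 with upper quartile scaling, and lay between -0.0587 and 0.0107 without 1 library (0.00871 without control 1, 0.0107 without mutant 3). *Dact3* in the *Sox2* line became 0.000176 with the replicate block and 0.0281 with upper quartile scaling, and lay between -0.0586 and 0.0255 without 1 library (0.0255 without control 3, 0.00209 without mutant 1). In the *Nr2f1* line *Dact3* became -0.00671 with DESeq2 and -0.00668 with RLE factors, and lay between -0.0701 and 0.0534 without 1 library (-0.0701 without control B, -0.00227 without mutant B, -0.0115 without mutant C). *Wnt7b* in that line lay between -0.110 and 0.115 (0.115 without control D, 0.00146 without mutant B), *Fzd1* between -0.00823 (without mutant C) and 0.240, and *Lgr5* between -0.181 and 0.0396 (0.00231 without control B, 0.0396 without mutant B). The difference of *Dkk4* between the lines became -0.108 with the Y-linked covariate and lay between -0.0709 (without *Nr2f1* mutant A) and 0.435 without 1 library. Among all other values of single genes under the alternatives, 1022 kept their direction and side of the threshold, 97 were no longer called and 36 became called.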

Other observations

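The other marker lists were summed in the same way, and their part in the Wnt results was not tested. GABAergic neuron markers (8 genes, the most abundant being *Gad1*) summed to 121, 140 and 87.6 CPM in the *Sox2* controls and 234, 162 and 170 CPM in the *Sox2* mutants, and to 128, 131 and 123 CPM in the *Nr2f1* controls and 184, 120 and 232 CPM in the *Nr2f1* mutants. Markers of midbrain-derived interneurons (4 genes, *Tal1*) summed to 49.1, 60.2 and 48.9 CPM in the *Sox2* controls and 69.1, 74.0 and 72.5 CPM in the *Sox2* mutants, and to 56.8, 65.3 and 58.6 CPM in the *Nr2f1* controls and 91.4, 61.3 and 111 CPM in the *Nr2f1* mutants. In both lists the *Sox2* mutants lay above their controls and the *Nr2f1* mutants A and C were high, with 0 genes called by edgeR. Unadjusted p-values below 0.05 were found for 7 of 8 and 4 of 4 genes in the *Sox2* line (35% of all genes tested) and 4 and 3 in the *Nr2f1* line (24.6% of all). DESeq2 called 4 and 3 in the *Sox2* line (15.8% of all) and 0 and 1 in the *Nr2f1* line (7.13% of all).

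Habenular markers (5 genes, *Chrna3*) lay between 11.8 and 23.8 CPM in every library, and 1 of the 4 tested fell in the *Sox2* line (4.19% of all genes tested). These low sums stand beside thalamic sums near 1000 CPM.

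Endothelial markers (7 genes, *Cldn5*) summed to 336, 352 and 506 CPM in the *Sox2* controls and 458, 583 and 536 CPM in the *Sox2* mutants, and to 317, 374 and 321 CPM in the *Nr2f1* controls and 481, 377 and 532 CPM in the *Nr2f1* mutants. DESeq2 called 4 of the 7 in the *Nr2f1* line (7.13% of all genes tested), where edgeR called 0 and all 7 had an unadjusted p below 0.05 (24.6% of all). In the *Sox2* line 6 of 7 had an unadjusted p below 0.05 (35% of all), and neither tool called any. Pericyte markers (6 genes, *Notch3*) summed to 465, 494 and 652 CPM in the *Sox2* controls and 605, 777 and 699 CPM in the *Sox2* mutants, and to 460, 507 and 524 CPM in the *Nr2f1* controls and 597, 499 and 642 CPM in the *Nr2f1* mutants. Oligodendrocyte lineage markers (7 genes, *Olig1*) ranged from 489 CPM in *Nr2f1* control D to 815 CPM in *Sox2* mutant 4. Of these, 1 of 7 rose in the *Sox2* line (3.90% of all genes tested) and 1 of 7 in the *Nr2f1* line (1.22% of all). Choroid plexus markers (6 genes, *Ttr*) varied widely within groups, with 140, 64.5 and 32.3 CPM in the *Sox2* controls, 174, 47.1 and 136 CPM in the *Sox2* mutants, 48.6, 46.1 and 75.7 CPM in the *Nr2f1* controls and 72.8, 69.9 and 99.8 CPM in the *Nr2f1* mutants. Of these 6, edgeR called 1, *Otx2*, higher in the *Sox2* line (3.90% of all genes tested) and none in the *Nr2f1* line. DESeq2 called 1 in each, against 15.8% and 7.13% of all genes tested. Markers of dividing cells (6 genes, *Mki67*) ranged from 131 CPM in *Nr2f1* control E to 247 CPM in *Sox2* mutant 4, and 0 of the 6 were called by edgeR, with 5 at an unadjusted p below 0.05 and 1 called by DESeq2 in the *Sox2* line and 0 and 0 in the *Nr2f1* line, beside the shares of all genes given above and 15.8% and 7.13% called by DESeq2. In the *Nr2f1* line the neuronal list summed to 6420, 6321 and 6521 CPM in controls and 6025, 6274 and 5768 CPM in mutants. Of its 6 genes edgeR called 0 and DESeq2 called 1, which was lower (7.13% of all genes tested were called by DESeq2).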
